A study of Mus musculus with 4 samples.

Results

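The sarcomere is the contractile unit of striated muscle, and the genes described here code for its scaffold and for the factors that build it. They are 39 genes for Z-disc, M-band and giant filament proteins and their assembly factors, chosen by name and without the actins, myosins, tropomyosins and troponins. The choice was made with earlier results of these data known. The deposited table has 54446 rows, and each of the 39 names was found on 1 row. In the sarcomere, thin filaments are anchored in the Z-disc by alpha-actinin, and thick filaments are cross-linked in the M-band. Titin spans from Z-disc to M-band, nebulin runs along the thin filament, and chaperones and ubiquitin ligase adaptors fold, assemble and remove these proteins. In cultured muscle stem cells many of these genes, though not all, are known as part of the terminal programme that myoblasts switch on when they leave the cell cycle and fuse.

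The cells were satellite cells, the muscle stem cells, from the hindlimb of C57BL/6 mice, cultured in F10 medium with 10% HS and harvested 48 h after siRNA treatment. The LncMyoD knockdown group (2 libraries) had siRNA directed at LncMyoD, a lncRNA transcribed near the Myod1 gene, and the control siRNA group (2 libraries) had control siRNA. The comparison asks which polyadenylated RNAs differ when this RNA is targeted. Titles, descriptions and treatment tags gave the groups, although LncMyoD is also given as target in the treatment text of the controls. Whether the 2 libraries of a group are from different animals or dishes is not in the labels, so the spread behind each p-value is that of these libraries and may be technical. With 0 rows named LncMyoD, its knockdown was not analysed here. In these bulk libraries, fewer cells of a type and less RNA per cell cannot be told apart.

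Values are FPKM, fragments scaled to transcript length and library size, so levels of different genes are compared per length. For a 1 kb transcript, 1 FPKM corresponded to an estimated 36.6 to 41.1 reads of 150 nt. Of the markers of the labelled cell type, Myod1 had 583 and 667 FPKM in knockdown libraries and 698 and 691 FPKM in control libraries. Myog, a factor of differentiating myoblasts, had 3406 and 2793 FPKM in knockdown and 4196 and 3931 FPKM in control. Pax7, the satellite cell factor, was at 1.396 and 0.625 FPKM in knockdown and 1.02 and 0.859 FPKM in control. Myod1 and Myog were thus high and Pax7 low in every library. The 8 markers of muscle stem cells and myoblasts summed to 4039 to 4427 FPKM in knockdown and 5147 to 5426 FPKM in control, most of it Myog. Among these markers, Des is also a member of the sarcomere list, so the lists are not independent. Of the 7 markers tested, 0 passed the adjusted threshold of limma and 1 (Myog) had an unadjusted p under 0.05. Over all 10900 genes tested, 0.055% passed and 7.08% had an unadjusted p under 0.05. The marker counts that follow stand beside the same shares. Vcam1, an adhesion molecule of satellite cells, lay above both controls, with 46.2 and 53.7 FPKM in knockdown and 42.4 and 44.0 FPKM in control. Of the markers fixed for other cell types, summed levels were 62.5 to 72.9 FPKM in knockdown and 78.6 to 87.7 FPKM in control for 7 fibroblast genes. Their most abundant genes differed in direction: Islr had 42.1 and 30.6 FPKM in knockdown and 51.2 and 58.5 FPKM in control, and Col3a1 had 27.4 and 29.4 FPKM in knockdown and 23.1 and 24.4 FPKM in control. Of the 3 fibroblast genes tested, 0 passed the adjusted threshold and 1 (Islr) had an unadjusted p under 0.05. Summed levels were 6.58 to 6.84 FPKM in knockdown and 5.86 to 8.20 FPKM in control for 6 endothelial genes, 2.14 to 3.15 FPKM and 1.66 to 2.83 FPKM for 5 macrophage genes, and 0.0113 to 0.724 FPKM and 0.102 to 0.170 FPKM for 4 Schwann cell genes. Kdr, Ptprc, Adgre1 and S100b were at 0 in all 4 libraries. Of 9 smooth muscle and pericyte markers the sum was 2706 to 2782 FPKM in knockdown and 3146 to 3322 FPKM in control, nearly all of it Acta2 and Tagln, while Kcnj8 was at 0 and Myh11 reached 0.0337 FPKM at most. All 4 tested markers of this list had a log2 fold change below 0, where 45.2% of all genes tested did. Of the 4, 0 passed the adjusted threshold and 2, Acta2 and Mcam, had an unadjusted p under 0.05. Acta2 had 2670 and 2576 FPKM in knockdown and 3165 and 3021 FPKM in control. Mcam had 0.826 and 0.57 FPKM in knockdown and 2.22 and 1.94 FPKM in control. Mcam reached a mean of 1 FPKM, needed for testing, through its control level (means 0.698 FPKM in knockdown and 2.08 FPKM in control). Among the untested markers, Pdgfrb lay above both controls, with 0.461 and 0.634 FPKM in knockdown and 0.150 and 0.184 FPKM in control. Rgs5 lay below both, at 0 in knockdown and 0.0733 and 0.0981 FPKM in control. Of 6 cardiac markers, 5 were at 0 in every library. The part of other cell types in the results was not tested.

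Promoter sequences are shown for 4 members because they carry motifs of muscle transcription factors and belong to genes described further on: Mybph, Klhl41 and Myoz2, which were lower in knockdown libraries, and Ttn, which was higher. Each is 300 bases of RefSeq promoter on GRCm38.p6, from 250 bases before the transcription start to 50 after it, in the direction of transcription. Capitals mark matches, on either strand, to the E-box CAGCTG, a site type bound by myogenic factors, the MEF2 motif, the CArG box of serum response factor and the MCAT element CATTCC of TEAD factors. The windows are chr1:134193198-134193497 (plus strand) for Mybph, chr2:69669870-69670169 (plus strand) for Klhl41, chr3:123034938-123035237 (minus strand) for Myoz2 and chr2:76982498-76982797 (minus strand) for Ttn.
Mybph: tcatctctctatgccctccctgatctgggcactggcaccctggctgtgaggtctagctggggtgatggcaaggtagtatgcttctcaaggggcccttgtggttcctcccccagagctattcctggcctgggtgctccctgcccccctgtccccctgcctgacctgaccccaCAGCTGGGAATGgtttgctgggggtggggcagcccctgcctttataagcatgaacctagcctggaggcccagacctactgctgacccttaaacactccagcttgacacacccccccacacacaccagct
Klhl41: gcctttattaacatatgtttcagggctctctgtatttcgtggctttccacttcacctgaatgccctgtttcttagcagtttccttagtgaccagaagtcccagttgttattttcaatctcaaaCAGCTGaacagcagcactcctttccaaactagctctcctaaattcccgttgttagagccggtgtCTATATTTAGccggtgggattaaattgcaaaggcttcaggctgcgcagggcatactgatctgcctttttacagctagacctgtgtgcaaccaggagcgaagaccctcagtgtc
Myoz2: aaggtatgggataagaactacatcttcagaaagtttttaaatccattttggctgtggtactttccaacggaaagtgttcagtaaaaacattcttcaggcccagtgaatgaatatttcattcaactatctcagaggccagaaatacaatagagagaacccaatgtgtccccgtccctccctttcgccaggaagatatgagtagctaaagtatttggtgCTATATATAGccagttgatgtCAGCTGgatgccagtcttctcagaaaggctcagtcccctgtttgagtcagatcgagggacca
Ttn: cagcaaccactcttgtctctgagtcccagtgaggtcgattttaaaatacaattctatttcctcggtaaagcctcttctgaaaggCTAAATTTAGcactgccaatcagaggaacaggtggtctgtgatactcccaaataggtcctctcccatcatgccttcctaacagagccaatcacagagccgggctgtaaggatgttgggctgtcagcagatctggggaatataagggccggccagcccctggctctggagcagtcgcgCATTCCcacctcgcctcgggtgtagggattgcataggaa

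In Mybph the E-box begins 79 bases before the start and the MCAT element follows it at 73. Klhl41 holds an E-box at 127 bases and a MEF2 motif at 63 bases before the start, and Myoz2 holds a MEF2 motif at 33 bases and an E-box at 12. Ttn holds a MEF2 motif at 166 bases before the start and an MCAT element that begins at base 12 of the transcript. Promoters of 30 of the 39 members were matched in the table. The E-box CAGCTG was found in 13 of the 30, against 18.3% of 27025 genes with a promoter of the same length. The MEF2 motif was found in 8 of the 30 (Capn3, Klhl41, Myom3, Myoz2, Synpo2, Synpo2l, Ttn and Xirp2), against 3.7% of all genes. CATTCC was found in 9 (16.6% of all genes), the CArG box in 3 (1.81%), TATAAA in 6 (15.7%) and any CANNTG, of which CAGCTG is one form, in 26 (75.0%). Matches were counted on both strands, and those of different motifs may overlap. Among the tested members with a promoter in the table, CAGCTG was found in 7 of the 14 whose knockdown libraries both lay below both controls and in 6 of the 13 whose groups overlapped, and the MEF2 motif in 4 and 3. These are matches of letters and not measured binding.

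The 39 members covered a wide range of levels. Ankrd1, a titin-binding repeat protein of the nucleus and I-band, had the highest mean over the 4 libraries, 1076 FPKM, followed by Actn3 with 361 FPKM, Des with 266 FPKM, Klhl41 with 159 FPKM, Mybph with 153 FPKM and Pdlim3 with 142 FPKM. These 6 members lay at 100 FPKM or more, 15 lay between 10 and 100 FPKM, 14 lay between 1 and 10 FPKM and 4 lay below 1 FPKM. Neighbours in this order often did not differ beyond their spread, as the values of Klhl41 (107 to 194 FPKM), Mybph (128 to 174 FPKM) and Pdlim3 (132 to 154 FPKM) overlapped. The lowest were 4 members: Mybpc2, the fast myosin-binding protein C, reached 0.0411 FPKM, Tmod4, a skeletal tropomodulin, reached 0.0141 FPKM, Myoz1, calsarcin of fast fibres, reached 0.356 FPKM, and Myot, the Z-disc protein myotilin, lay between 0.153 and 0.972 FPKM. These 4 were below the filter of a mean of 1 FPKM and were not tested.

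**Figure D1:**
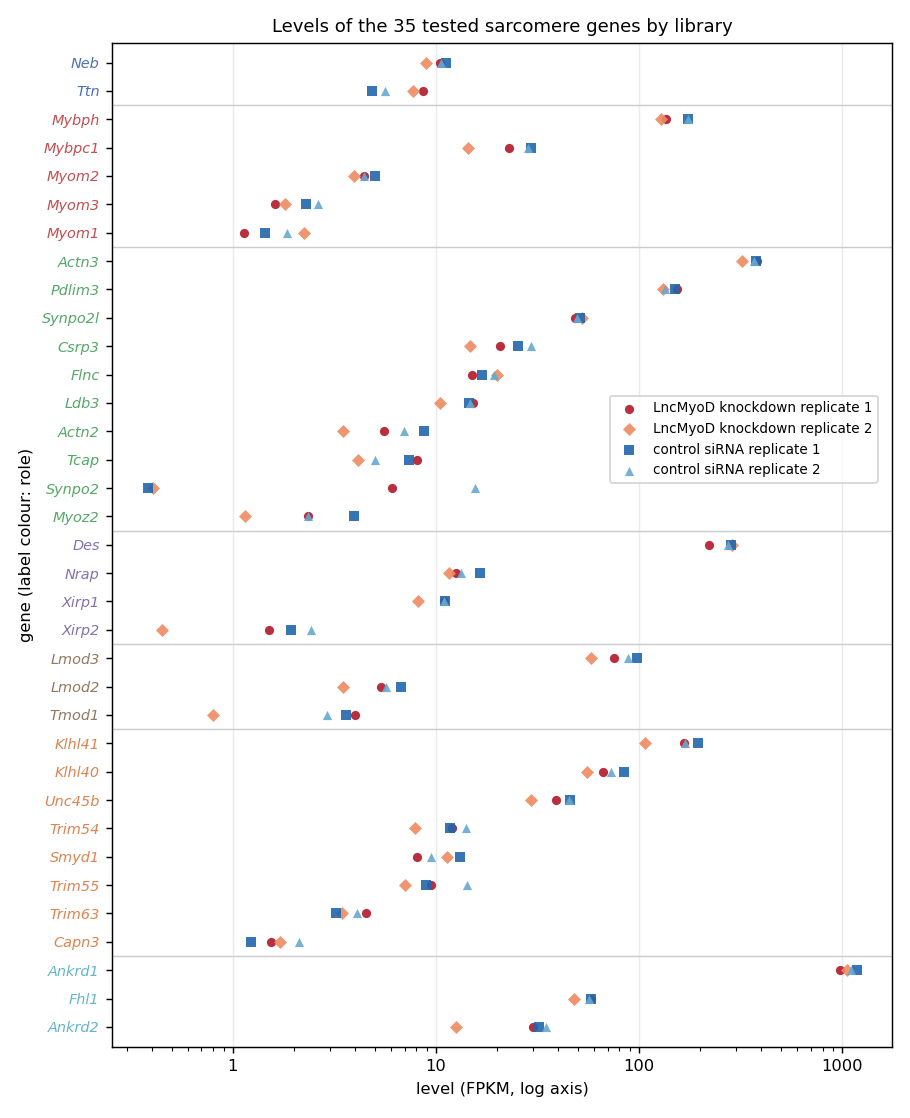
Level of each of the 35 tested members (FPKM, log axis) in the 2 LncMyoD knockdown libraries (circles, diamonds) and the 2 control siRNA libraries (squares, triangles), grouped by role from giant filaments at the top to titin-associated proteins at the bottom. Ankrd1 lies at 971 to 1181 FPKM and Xirp2 at 0.449 to 2.43 FPKM, and in 26 of the 35 rows the diamond lies below both controls.

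Of the 35 members that passed the filter, 32 had a log2 fold change below 0 and 3 above 0 (Ttn, Trim63 and Pdlim3), where 45.2% of all 10900 genes tested were below 0. The median over the 35 was -0.27 on the log2(FPKM + 1) scale, knockdown minus control, and over all genes tested it was 0.026. No member (0 of 35) passed the adjusted threshold of 0.05 by limma, in a comparison that called 6 of 10900 genes, or 0.055%, with 0.00917% higher and 0.0459% lower. At an unadjusted p under 0.05 there were 8 members, Mybph, Lmod3, Csrp3, Mybpc1, Actn2, Klhl40 and Unc45b lower and Ttn higher, against 7.08% of all genes, with 2.7% lower and 4.39% higher. When 1 library was left out, the median over the 35 was -0.44 (without knockdown replicate 1), -0.18 (knockdown replicate 2), -0.25 (control replicate 1) or -0.24 (control replicate 2). Both knockdown libraries lay below both controls for 17 of the 35, where this held for 16.3% of all genes tested, and above both for Ttn alone, where this held for 22.1% of all genes. For the other 17 the groups overlapped. Because a gene could pass the filter through its control level alone, these counts describe the tested members and not all 39. The members were chosen with earlier results of these data known, so the counts beside these shares are a description and not a test. The scale adds 1 to each FPKM value and so understates the change of the lowest genes.

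The libraries of the knockdown group did not contribute alike. The median over the 35 members, relative to the control mean, was -0.18 in knockdown replicate 1, against -0.44 in replicate 2, and over all genes tested it was 0.0077 and 0.054. These are also the list medians without knockdown replicate 2 and without knockdown replicate 1. Knockdown replicate 1 lay below both controls for 22 of the 35 members (36.8% of all genes tested) and above both for 8 (37.4%). Knockdown replicate 2 lay below both for 26 (29.9% of all genes) and above both for 5 (43.8%). Knockdown replicate 2 lay below knockdown replicate 1 in 27 of the 35, where this held for 45.8% of all genes, while control replicate 2 lay below control replicate 1 in 21 (50.8% of all genes). In 14 of the 35 the knockdown libraries lay on opposite sides of the control mean, where this held for 39.6% of all genes. The 2 knockdown values share the same controls. In the same libraries Myog also lay below both controls and was lowest in knockdown replicate 2, and the part of this marker's difference in the sarcomere values was not tested.

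**Figure D2:**
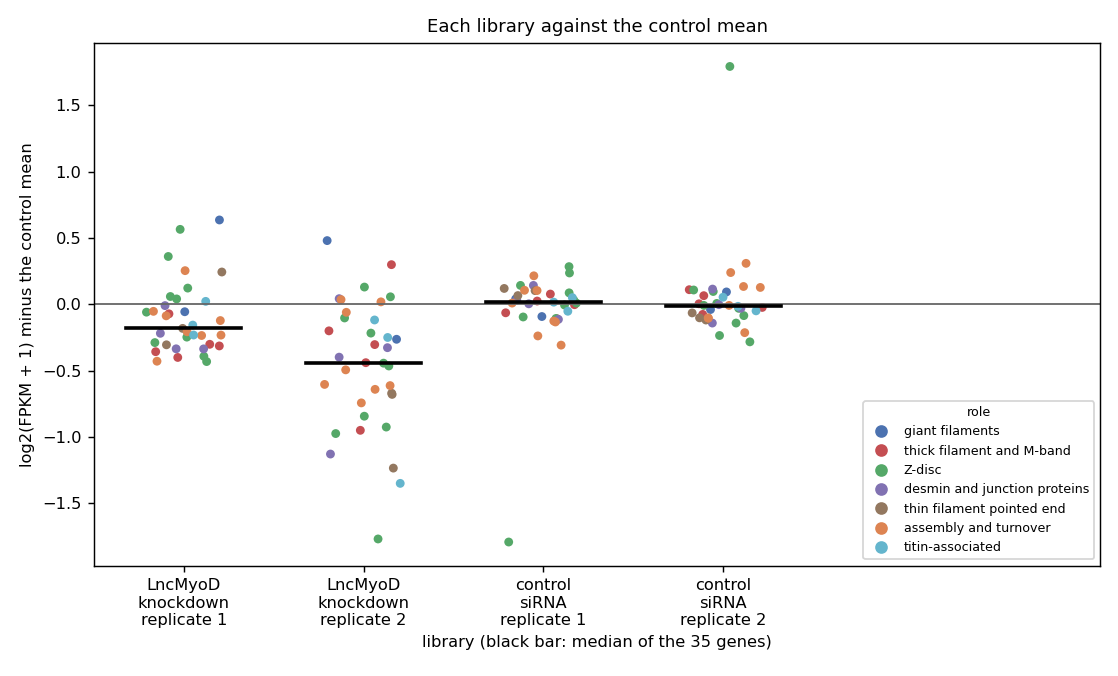
Difference of each of the 35 tested members from the control mean on the log2(FPKM + 1) scale in each of the 4 libraries, coloured by role, with the median as a black bar. The bar is at -0.18 for knockdown replicate 1, against -0.44 for replicate 2; the control libraries mirror each other because their own mean is the zero line, and the far points of both controls are Synpo2.

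The log2 fold changes of the giant filament genes had opposite signs. Ttn (ENSMUSG00000051747, chromosome 2, 76703980 to 76982547, minus strand, GRCm38) codes for titin, the molecular spring that sets sarcomere length, and had 8.66 and 7.67 FPKM in knockdown against 4.83 and 5.63 FPKM in control. Both knockdown libraries were above both controls, at 1.56 times the control mean. The log2 fold change was 0.56 ± 0.177 (SE), with a 95% interval of 0.13 to 0.99 and a limma adjusted p of 0.636, and it ranged from 0.46 to 0.65 over 11 alternatives. Neb (chromosome 2, 52136647 to 52378474, minus strand) codes for nebulin, and had 10.5 and 8.93 FPKM in knockdown against 11.3 and 10.6 FPKM in control. Its groups were separated by a margin far smaller than the spread within knockdown (log2 fold change -0.16 ± 0.158, SE, limma adjusted p 0.862). The ratio of Ttn to Neb within a library was 0.827 and 0.859 in knockdown and 0.429 and 0.531 in control, so titin RNA per nebulin RNA was higher in both knockdown libraries. Annotated transcripts range from 271 to 106824 bases for Ttn and from 582 to 22489 bases for Neb, so an FPKM per gene depends on which transcripts the reads were assigned to.

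Of the 5 tested members of the thick filament and M-band, 5 had a log2 fold change below 0 (45.2% of all genes tested), with a median of -0.35. The adjusted threshold was passed by 0 of them (0.055% of all genes). Mybph (ENSMUSG00000042451, chromosome 1, 134193448 to 134201232, plus strand) codes for myosin-binding protein H, and had 135 and 128 FPKM in knockdown against 173 and 174 FPKM in control. The groups stood apart by much more than either group's spread, and the ratio of means was 0.757. Its log2 fold change of -0.40 ± 0.0862 (SE, 95% interval -0.61 to -0.19) had the lowest p of all members (unadjusted p 0.00346, limma adjusted p 0.523). It was -0.36 without knockdown replicate 2 and -0.44 without knockdown replicate 1. Of the exon bases of Mybph, 49.9% overlap Adora1 on the other strand, and without a known strand setting their reads cannot be told apart. Adora1 itself had 3.38 and 3.003 FPKM in knockdown and 4.48 and 3.64 FPKM in control.

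Mybpc1 (chromosome 10, 88518279 to 88605152, minus strand), slow myosin-binding protein C, had 22.9 and 14.4 FPKM in knockdown against 29.2 and 28.2 FPKM in control. Both knockdown libraries were lower, with replicate 2 farthest from the controls (log2 fold change -0.63 ± 0.217, SE, limma adjusted p 0.649). Among the myomesins, which cross-link thick filaments in the M-band, Myom3 had 1.62 and 1.80 FPKM in knockdown against 2.31 and 2.62 FPKM in control, with no overlap (log2 fold change -0.35 ± 0.206, SE, limma adjusted p 0.754). Myom2 had 4.42 and 3.96 FPKM in knockdown against 5.005 and 4.40 FPKM in control, and its groups overlapped. Myom1 had 1.14 and 2.24 FPKM in knockdown against 1.44 and 1.84 FPKM in control, so its control values lay inside the knockdown range.

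Of the 10 tested Z-disc members, 9 had a log2 fold change below 0 (45.2% of all genes tested), with a median of -0.14. The adjusted threshold was passed by 0 of them (0.055% of all genes). In 3 of them, Actn2, Csrp3 and Myoz2, both knockdown libraries were below both controls, where this held for 16.3% of all genes tested. Actn2 (chromosome 13, 12269426 to 12340760, minus strand), the alpha-actinin of Z-discs in all striated fibres, had 5.53 and 3.48 FPKM in knockdown against 8.72 and 6.98 FPKM in control. It stood at 0.574 times the control mean (log2 fold change -0.70 ± 0.242, SE, 95% interval -1.29 to -0.11, limma adjusted p 0.649). Actn3, the alpha-actinin of fast fibres, had 382 and 320 FPKM in knockdown against 374 and 369 FPKM in control, so its groups overlapped (log2 fold change -0.09, 95% interval -0.35 to 0.17). The ratio of Actn3 to Actn2 was 69.1 and 91.7 in knockdown and 42.9 and 52.9 in control, higher in both knockdown libraries.

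Csrp3 (chromosome 7, 48830398 to 48848033, minus strand), the muscle LIM protein of the Z-disc, had 20.6 and 14.8 FPKM in knockdown against 25.3 and 29.5 FPKM in control. Its log2 fold change was -0.62 ± 0.186 (SE, 95% interval -1.07 to -0.16, limma adjusted p 0.625), and -0.39 without knockdown replicate 2. Myoz2, a calcineurin-binding calsarcin whose promoter is printed above, had 2.34 and 1.15 FPKM in knockdown against 3.97 and 2.35 FPKM in control. Knockdown replicate 1 and control replicate 2 were nearly level, and the difference lay in the other 2 libraries (log2 fold change -0.61 ± 0.315, SE, limma adjusted p 0.718).

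In 3 abundant Z-disc members the groups overlapped and the means were close. Synpo2l, an actin-bundling protein of the Z-disc, had 48.3 and 52.4 FPKM in knockdown against 51.4 and 49.2 FPKM in control, with a 95% interval of the log2 fold change of -0.26 to 0.26. Pdlim3, an alpha-actinin-binding LIM protein, had 154 and 132 FPKM in knockdown against 150 and 133 FPKM in control (interval -0.27 to 0.29). Flnc, muscle filamin, had 15.1 and 19.9 FPKM in knockdown against 16.9 and 19.4 FPKM in control (interval -0.48 to 0.37). With 2 libraries a group, the values of each gene are compatible with any change inside its interval. Ldb3, the PDZ and LIM protein of the Z-disc also called cypher, had 15.3 and 10.5 FPKM in knockdown against 14.6 and 14.7 FPKM in control, and Tcap, which caps titin at the Z-disc, had 8.11 and 4.14 FPKM in knockdown against 7.36 and 5.03 FPKM in control. In both, knockdown replicate 1 was the highest of the 4 libraries and knockdown replicate 2 the lowest.

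Synpo2 (chromosome 3, 123076519 to 123236149, minus strand), a myopodin of the Z-disc, differed most between replicates. It had 6.07 and 0.404 FPKM in knockdown against 0.382 and 15.6 FPKM in control, so 1 library of each group was high and the other low. Its standard error of 1.24 was the largest of the members (log2 fold change -0.60, 95% interval -3.63 to 2.42), and without control replicate 2 the log2 fold change was 1.19. Its 7 annotated transcripts range from 391 to 9203 bases. The median over the other 34 tested members was -0.24.

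Of the 4 desmin and junction members, 4 had a log2 fold change below 0 (45.2% of all genes tested), with a median of -0.24. The adjusted threshold was passed by 0 of them (0.055% of all genes). Xirp2 (chromosome 2, 67446002 to 67526614, plus strand), a Xin-repeat protein of myofibril attachment sites, had 1.51 and 0.449 FPKM in knockdown against 1.93 and 2.43 FPKM in control. At 0.449 times the control mean it had the lowest ratio among the tested members whose groups did not overlap, and knockdown replicate 2 was the lowest library (log2 fold change -0.73 ± 0.315, SE, limma adjusted p 0.698; -0.34 without that library). Its mean was 0.979 FPKM in knockdown and 2.18 FPKM in control, so it passed the filter through its control level. Its relative Xirp1 had 10.9 and 8.11 FPKM in knockdown against 11.04 and 10.99 FPKM in control, and knockdown replicate 1 was close to the controls. The ratio of Xirp1 to Xirp2 was 7.24 and 18.1 in knockdown and 5.73 and 4.52 in control, higher in both knockdown libraries. Nrap, which anchors forming myofibrils at cell ends, had 12.6 and 11.6 FPKM in knockdown against 16.5 and 13.3 FPKM in control, with no overlap (log2 fold change -0.27 ± 0.160, SE, limma adjusted p 0.756). Des, the intermediate filament desmin that links Z-discs, had 221 and 287 FPKM in knockdown against 285 and 273 FPKM in control, so its control values lay within the knockdown range.

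The proteins of the thin filament pointed end had a median of -0.49 over the 3 tested, and 0 passed (0.055% of all genes tested). Leiomodins nucleate and lengthen actin filaments there. Lmod3 (chromosome 6, 97238534 to 97252759, minus strand) was measured at 74.8 and 57.9 FPKM in knockdown, against 97.1 and 88.6 FPKM in control. On its only annotated transcript of 2215 bases this is an estimated 6075 and 5265 reads in knockdown and 8417 and 7653 reads in control. Its log2 fold change was -0.49 ± 0.144 (SE, 95% interval -0.84 to -0.14, limma adjusted p 0.619), and -0.31 without knockdown replicate 2. Lmod2, more abundant in heart, had 5.33 and 3.49 FPKM in knockdown against 6.71 and 5.69 FPKM in control (log2 fold change -0.43 ± 0.231, SE, limma adjusted p 0.731). In both leiomodins the groups did not overlap. The ratio of Lmod3 to Lmod2 was 14.0 and 16.6 in knockdown and 14.5 and 15.6 in control, so the leiomodins kept a similar ratio in all 4 libraries. Tmod1, a tropomodulin that caps the pointed end, had 4.01 and 0.799 FPKM in knockdown against 3.60 and 2.90 FPKM in control; knockdown replicate 1 was the highest library and replicate 2 the lowest, and 32.6% of its exon bases overlap Tstd2 on the other strand, with 9.87 to 12.0 FPKM in knockdown and 12.5 to 13.4 FPKM in control.

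**Figure D3:**
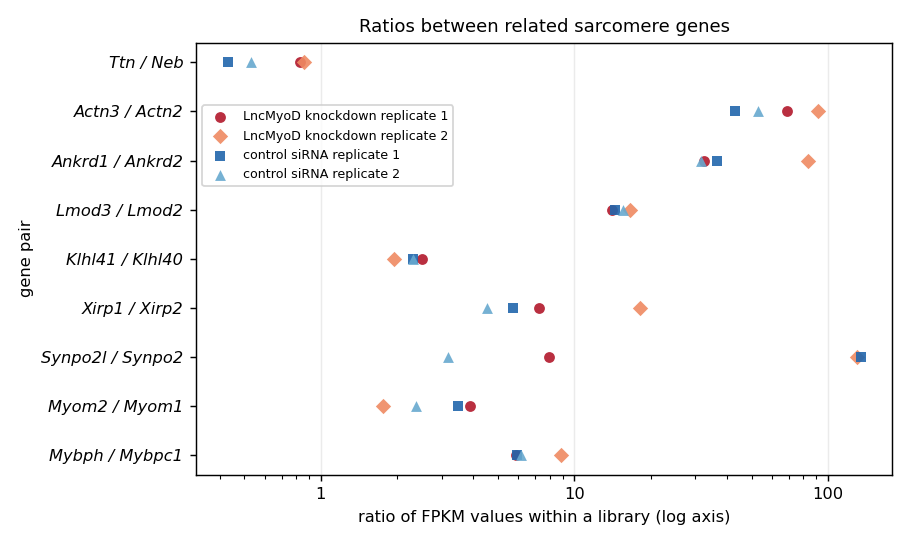
Ratio of FPKM values between 9 pairs of related members within each library (log axis), with LncMyoD knockdown libraries as circles and diamonds and control siRNA libraries as squares and triangles. Ttn to Neb, Actn3 to Actn2 and Xirp1 to Xirp2 are higher in both knockdown libraries, Lmod3 to Lmod2 lies between 14.0 and 16.6 in all 4, and Synpo2l to Synpo2 splits the replicates of both groups. Apart from the pairs named as higher, the groups overlap. The ratios were not tested, and no share over other gene pairs was computed.

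Among the 8 assembly and turnover members, 7 had a log2 fold change below 0 (45.2% of all genes tested), with a median of -0.36. The adjusted threshold was passed by 0 of them (0.055% of all genes). Klhl40 (chromosome 9, 121777607 to 121783818, plus strand) is a ubiquitin ligase adaptor that stabilises Lmod3 and nebulin, and had 66.2 and 55.2 FPKM in knockdown against 84.0 and 72.7 FPKM in control. Its log2 fold change was -0.37 ± 0.133 (SE, 95% interval -0.69 to -0.04, limma adjusted p 0.667). Of its exon bases 21.6% overlap Gm47108 on the other strand, which reached 0.297 FPKM at most. Its relative Klhl41 (chromosome 2, 69670120 to 69684230, plus strand) was measured at 166 and 107 FPKM in knockdown against 194 and 168 FPKM in control, or an estimated 15359 and 11154 reads in knockdown and 19229 and 16549 reads in control. Knockdown replicate 1 was just under the lower control and replicate 2 far under it (log2 fold change -0.43 ± 0.205, SE, limma adjusted p 0.711; -0.12 without knockdown replicate 2).

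Unc45b (chromosome 11, 82910550 to 82943403, plus strand), the chaperone that folds myosin heads, had 39.1 and 29.4 FPKM in knockdown against 45.6 and 45.0 FPKM in control, with no overlap (log2 fold change -0.41 ± 0.155, SE, limma adjusted p 0.692). Smyd1, a methyltransferase that works with the myosin chaperones, had 8.02 and 11.3 FPKM in knockdown against 13.1 and 9.47 FPKM in control, and its groups overlapped. Of the muscle RING finger proteins, Trim54 had 12.0 and 7.88 FPKM in knockdown against 11.7 and 14.1 FPKM in control, and Trim55 had 9.44 and 7.02 FPKM in knockdown against 8.91 and 14.2 FPKM in control. Of the exon bases of Trim54, 26.6% overlap Gm15469 on the other strand, which reached 0.17 FPKM at most. Trim63, the atrophy ligase MuRF1, was among the 3 with a positive log2 fold change, with 4.51 and 3.43 FPKM in knockdown against 3.21 and 4.07 FPKM in control. Capn3, the muscle calpain, had 1.54 and 1.70 FPKM in knockdown against 1.24 and 2.11 FPKM in control. In each of these 4 the groups overlapped.

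All 3 titin-associated members had a log2 fold change below 0 (45.2% of all genes tested), with a median of -0.18. The adjusted threshold was passed by 0 of them (0.055% of all genes). Ankrd1 (chromosome 19, 36111961 to 36120099, minus strand) was measured at 971 and 1051 FPKM in knockdown against 1181 and 1102 FPKM in control, or 1011 ± 56.2 FPKM in knockdown and 1141 ± 55.7 FPKM in control (SD, n = 2 each). It had the smallest standard error of the members, 0.0806, with a log2 fold change of -0.18 (95% interval -0.37 to 0.02, limma adjusted p 0.703). Its relative Ankrd2 (chromosome 19, 42036000 to 42045110, plus strand), a stretch-responsive repeat protein, had 30.0 and 12.6 FPKM in knockdown against 32.3 and 34.8 FPKM in control. Knockdown replicate 2 was far below the other 3 libraries. The log2 fold change of -0.75 ± 0.362 (SE, limma adjusted p 0.712) was -0.16 without that library and -1.35 without knockdown replicate 1. Each of these 2 fits leaves 1 knockdown library and so holds no spread within knockdown. The ratio of Ankrd1 to Ankrd2 was 32.4 and 83.7 in knockdown and 36.6 and 31.6 in control, so only knockdown replicate 2 stood apart. Fhl1, a LIM protein on titin, had 57.9 and 47.8 FPKM in knockdown against 57.7 and 56.4 FPKM in control, and its groups overlapped.

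**Figure D4:**
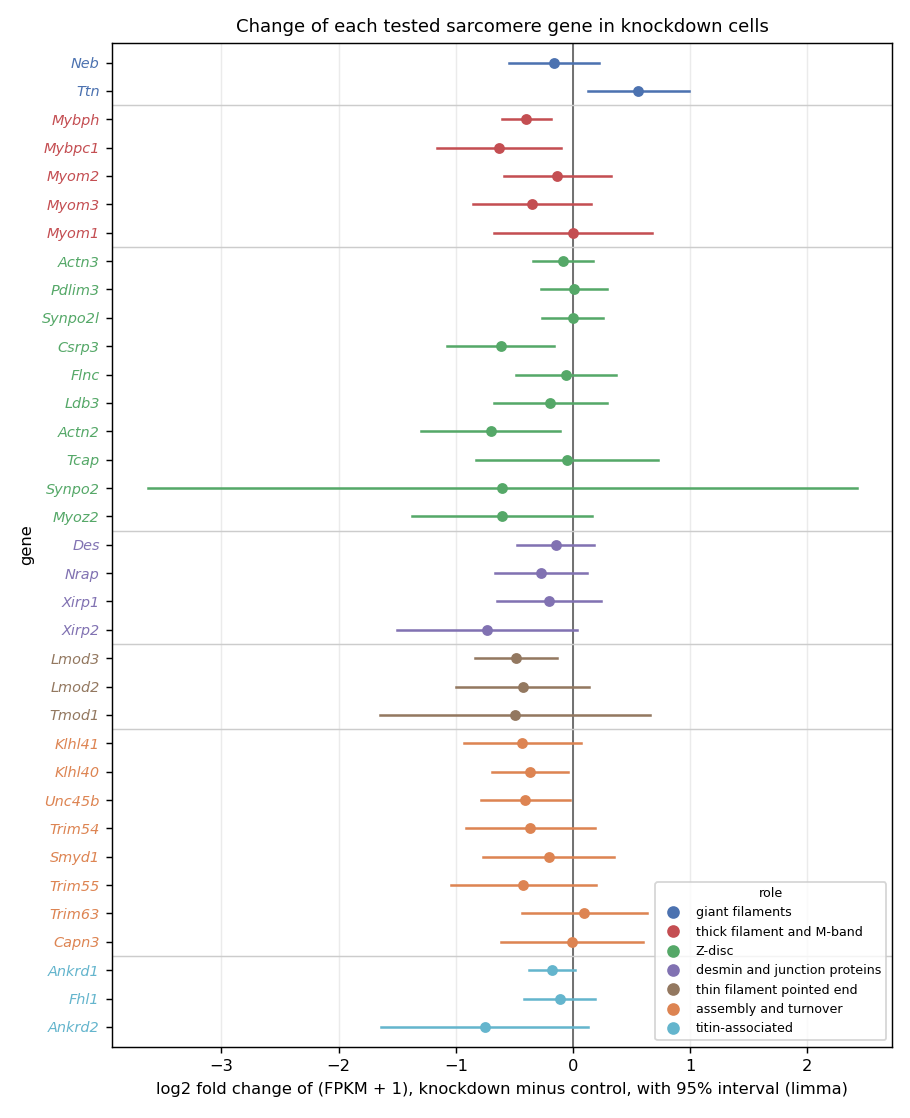
Log2 fold change of (FPKM + 1), knockdown minus control, of each tested member with its 95% interval from limma, coloured by role. The points run from -0.75 for Ankrd2 to 0.56 for Ttn; the intervals of 8 members lie to one side of 0 without adjustment, and none passed the adjusted threshold.

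For comparison, 43 further names of sarcomere genes and related genes were listed, of which 42 have a row and 30 passed the filter. The names include both Cavin4 and its older symbol Murc, which has no row of its own. The list also holds genes from outside these structures, such as Casq1, so its values are not those of sarcomere genes alone. The median log2 fold change of the 30 was -0.03, with 18 below 0 (45.2% of all genes tested) and 12 above 0. In either direction 0 passed the adjusted threshold of limma, against 0.055% of all genes tested. An unadjusted p under 0.05 was found for 3, against 7.08% of all genes tested. Both knockdown libraries lay below both controls in 8 (16.3% of all genes tested) and above both in 2 (22.1%). The 4 with the lowest p were Hspb8, Casq1, Cfl2 and Fbxl22. Hspb8, a small heat shock protein of the chaperone complex that clears damaged filamin, had 415 and 341 FPKM in knockdown against 582 and 543 FPKM in control (log2 fold change -0.58, limma adjusted p 0.523). Casq1, calsequestrin of the calcium store, had 23.0 and 16.4 FPKM in knockdown against 11.9 and 8.17 FPKM in control (0.91, limma adjusted p 0.607). Cfl2, muscle cofilin, had 66.1 and 59.3 FPKM in knockdown against 81.0 and 76.1 FPKM in control (-0.32, limma adjusted p 0.645). Fbxl22, a Z-disc F-box protein, had 1.98 and 2.42 FPKM in knockdown against 3.75 and 3.19 FPKM in control (-0.48, limma adjusted p 0.698).

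Of 25 actins, myosins, tropomyosins and troponins listed, 19 passed the filter, with a median of -0.16 and 15 below 0 (45.2% of all genes tested). Of the 19, 0 passed the adjusted threshold of limma (0.055% of all genes). An unadjusted p under 0.05 was found for 3 (7.08% of all genes). The list did not hold Tpm4, a tropomyosin of the cytoskeleton, which was among the 6 genes called and is named here after its values were seen. Tpm4 fell to 460 and 441 FPKM in knockdown, against 862 and 822 FPKM in control, with no overlap (log2 fold change -0.90 ± 0.0757, SE, limma adjusted p 0.035). The medians of the 19 relative to the control mean were 0.065 for knockdown replicate 1 and -0.38 for replicate 2, against -0.18 and -0.44 for the 35 members. The difference between these lists was not tested.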

How the data were processed

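Polyadenylated RNA of 4 libraries was measured, 2 per group. The authors deposited 1 table with an FPKM value per gene and library; the unit was inferred from values that are not whole and do not sum to a fixed total, and from StringTie among the tools. Per the submitters' processing notes the tools were bcl2fastq 2.19, Trimmomatic 0.36, HISAT2 2.1.0, SAMtools 1.3 and StringTie 1.3.3 with the build mm10, without roles; a strand setting is not given in the sources used here. Column sums were 317223 to 322496. In genes with 1 exon and 1 transcript, low FPKM values times length fell on whole steps (within 0.1 of a step) in 86.7% to 87.6% of values. Taking a step as 1 covered base gave the estimated reads behind a value, and no count model was used.

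Genes whose FPKM averaged 1 or more over the 4 libraries (10900) entered a two-sided limma test (limma 3.58.1, R 4.3.3) of log2(FPKM + 1), with trend and Benjamini-Hochberg adjustment over all of them. Residual degrees of freedom were 2 and prior ones 4.09, and the median 95% half-width was 0.48. It was tested on simulated data. GENCODE M21 (GRCm38, the assembly behind mm10) gave positions and transcripts, and RefSeq gave promoters. The members and lists were chosen with earlier results of these data known. Any member could be named, and of the further sarcomere and related genes the 4 with the lowest p. Alternatives covered scaling, pseudocount, filter, trend, replicate block and leaving out each library. Python 3.11.15 was used with pandas 2.3.3 and matplotlib 3.10.9.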

Additional observations from a re-analysis of the deposited data

How the results depend on the processing

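Of the 11 alternatives, those that kept all 4 libraries had 0 members past the adjusted threshold of limma. Their lowest adjusted p of any member was 0.426, with the filter at 5 FPKM. Fits without 1 library leave 1 group with 1 library, so only their effect sizes are given. With 2 libraries a group, a true change of the size seen here could be missed. The median log2 fold change of the members ranged from -0.20 without the filter to -0.30 with median ratio scaling and with quantile normalization, and from -0.44 to -0.18 when 1 library was left out; the value of -0.44 came without knockdown replicate 1. The number of genes called over the whole table was 6 and became 0 without the filter, 3 with a replicate block, and 5 to 15 when 1 library was left out. Whether same-numbered libraries belong together is not known. Their deviations had a correlation of -0.021 over 10900 genes, which cannot decide this, since it does not show how libraries were prepared. With the replicate block the member median was -0.27 with 0 members called. In that limma fit 10 members had an unadjusted p under 0.05, against 8 in the main fit.

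Of the 35 members, 21 kept the sign of their log2 fold change in every alternative that tested them and 14 did not; 4 of the 21 (Myom2, Myom3, Myoz2 and Xirp2) were tested in 10 alternatives, since they fall under the 5 FPKM filter. With median ratio scaling Pdlim3 had -0.020, and with a pseudocount of 0.1 FPKM Capn3 had 0.0010. The other changes of sign came when 1 library was left out. Leaving out either knockdown library gave the ends of the range for Actn3 (-0.22 to 0.040), Des (-0.34 to 0.042), Fhl1 (-0.25 to 0.022), Flnc (-0.25 to 0.13), Ldb3 (-0.44 to 0.058), Myom1 (-0.30 to 0.30), Pdlim3 (-0.10 to 0.12), Smyd1 (-0.43 to 0.018), Synpo2l (-0.060 to 0.056), Tcap (-0.47 to 0.36), Tmod1 (-1.24 to 0.24) and Trim63 (-0.061 to 0.25). Leaving out either control gave them for Capn3 (-0.25 to 0.23) and Synpo2 (-2.40 to 1.19). The cause was not tested.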
